A study of Mus musculus with 20 samples.

Results

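The genes described here are 10 transcription factors known to direct effector differentiation of CD8 T cells: Tbx21, Eomes, Runx3, Irf8, Irf4, Batf, Id2, Prdm1, Zeb2 and Bhlhe40. They were chosen by name, with earlier results of these data known. For each, the probe set with 1 gene symbol and the highest mean over all arrays was used. All 10 were measured, among 17097 genes measured in this way. Mouse CD44+CD8+ T cells were purified from lungs that carried 4T1 mammary tumour cells, and their RNA was hybridised to 20 Affymetrix arrays. Every group carried the tumour, and agents were given by the nose according to the labels. A first group of 5 arrays had received saline, 6 had received SD-101, a ligand of the innate DNA sensor TLR9, 5 had received SD-101 with an antibody against the inhibitory receptor PD-1, and 4 had received both of these with the agent labelled a-CD4. The last group is called the triple group below. The labels give no strain, age, dose or time, and do not say whether replicates came from separate mice. The p-values therefore measure only the spread between these arrays, which may be technical.

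A naive CD8 T cell becomes an effector when signals from its antigen receptor and from inflammatory cytokines converge on a small set of transcription factors. Batf and Irf4 are induced by the antigen receptor and open the genome together, Tbx21 and Eomes then drive interferon-gamma and the granule enzymes, and Id2, Prdm1 and Zeb2 push cells towards short-lived, terminal states. Runx3 sets the CD8 lineage and its cytotoxic genes, Irf8 responds to interferon and to cytokine signals, and Bhlhe40 sustains activated cells in tissue.

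The purified cells carried the T cell transcripts their label names. Cd3e, a chain of the T cell receptor complex, had a mean log2 value of 8.54 over all arrays, Cd8a of 10.80, and Cd4 of 3.13 with no array above 3.51. Some genes of other lung cells were bright too. The lung epithelial genes Sftpc and Scgb1a1 had means of 13.14 and 11.63, and Lyz2, of the macrophage list, 11.49. Other genes of these lists were dim, such as Nkx2-1 at 3.63 and Csf1r at 3.97. A T cell identity score, the mean log2 value of 12 T cell genes, ran from 8.42 to 10.36. The lowest score was that of triple replicate 2 and the next lowest, 8.88, that of saline replicate 1, so each factor's difference between the triple group and saline is given with and without triple replicate 2. Genes of other lung cells also differed between groups. All 14 endothelial markers fell with SD-101 plus anti-PD-1 against saline and 13 fell in the triple group. Their score was 7.74 to 9.88 with saline, 6.82 to 9.25 with SD-101, 4.96 to 6.02 with SD-101 plus anti-PD-1 and 6.21 to 7.66 in the triple group. The epithelial score was 8.06 to 10.25 with saline and 10.05 to 10.55 with SD-101 plus anti-PD-1, where all 14 measured genes were higher than saline by a median of 0.92 and 1 passed. Of 8 mast cell genes, 2 rose with SD-101. The neutrophil score was 10.06 on saline replicate 1 and 9.09 on triple replicate 1, and between 3.05 and 6.37 on the other arrays. Of 7 ciliated airway genes, 5 rose with SD-101 plus anti-PD-1, and of 14 heat shock and dissociation genes, 8 fell there and 7 fell in the triple group. In bulk samples of this kind, fewer cells of a type and less RNA per cell cannot be told apart.

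Against saline, 2 of the 10 factors rose in at least 1 treated group, and none fell. With the triple treatment Tbx21 and Irf8 rose, 2 of 10, where 7.12% of all genes passed the same test. With SD-101 plus anti-PD-1 only Tbx21 rose, 1 of 10, against 5.63% of all genes. With SD-101 alone 0 of 10 passed limma's moderated test at an adjusted p of 0.05, against 0.333% of all genes. An unadjusted limma p below 0.05 was found for 2 of 10, Tbx21 and Irf8. The share of all genes at that unadjusted threshold is not given, so this count cannot be set against 0.333%. A test for any difference among the 4 groups passed for the same 2 factors, with limma's adjusted F-test p of 0.0115 for Tbx21 and 0.00951 for Irf8, where 8.85% of all genes passed. The p-values were adjusted over all 17097 genes by the Benjamini-Hochberg method. The 3 comparisons with saline share the same 5 control arrays.

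**Figure D1:**
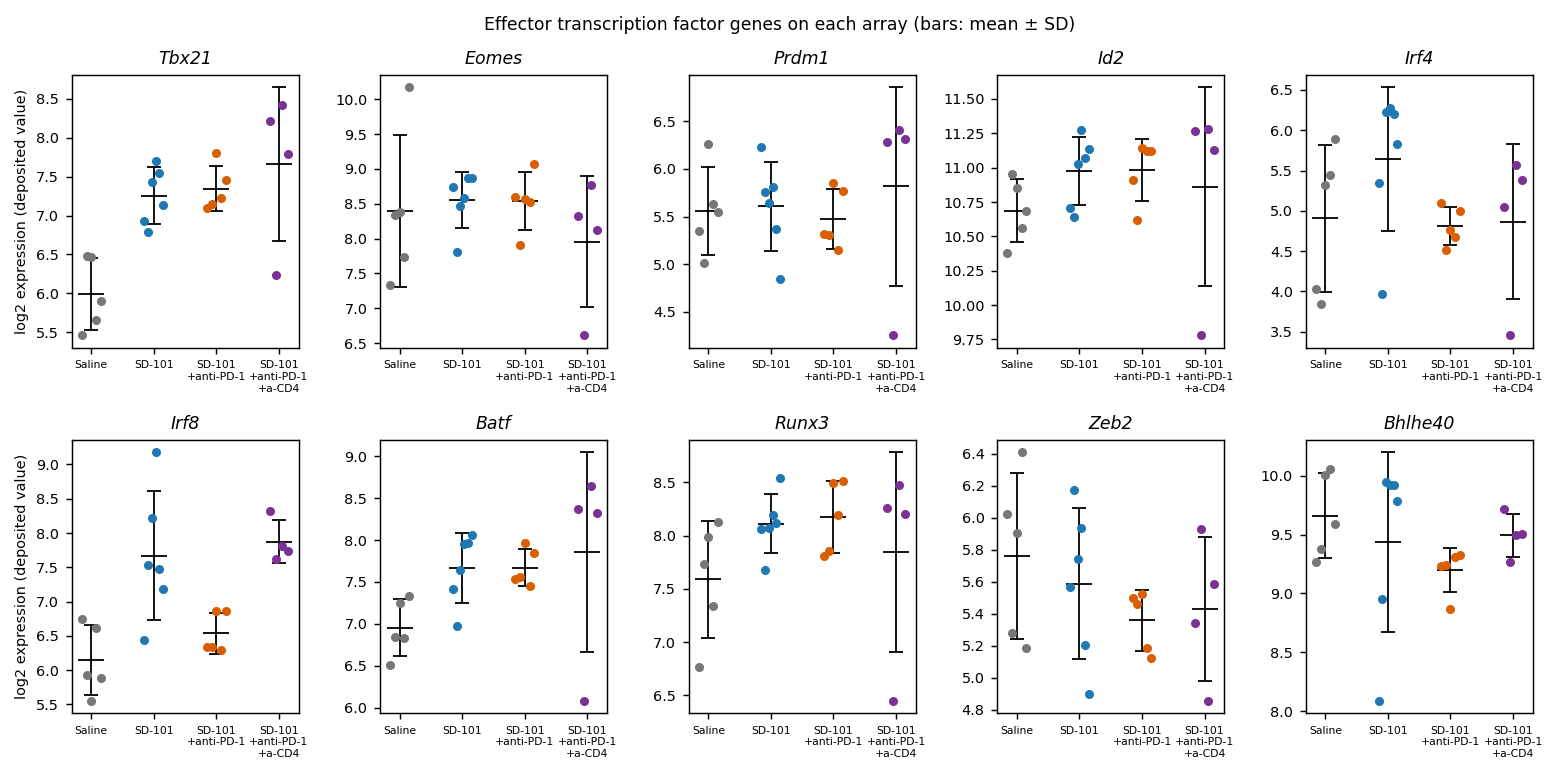
Log2 values of the 10 factors (vertical axes) on each of the 20 arrays, grouped by treatment, with 1 point per array and bars for the group mean and SD. Every Tbx21 point of SD-101 and of SD-101 plus anti-PD-1 lies above the highest saline value of 6.48, and Irf8 in the triple group runs from 7.62 to 8.33, above all saline points.

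Tbx21 encodes T-bet, the T-box factor that switches on interferon-gamma and cytotoxic genes, and its transcript rose against saline in 2 of the 3 treated groups. Irf8 encodes an interferon regulatory factor that interferon-gamma and cytokine signals induce through STAT proteins. Their promoters are shown because these are the factors that rose. Sequences are from RefSeq on GRCm38.p6 and run from 250 bases before to 50 after the gene's start, and capitals mark STAT elements, TTCNNNGAA searched on both strands. The Tbx21 window is chr11:97115282-97115581 on the minus strand, and the Irf8 window is chr8:120736108-120736407 on the plus strand.
Tbx21: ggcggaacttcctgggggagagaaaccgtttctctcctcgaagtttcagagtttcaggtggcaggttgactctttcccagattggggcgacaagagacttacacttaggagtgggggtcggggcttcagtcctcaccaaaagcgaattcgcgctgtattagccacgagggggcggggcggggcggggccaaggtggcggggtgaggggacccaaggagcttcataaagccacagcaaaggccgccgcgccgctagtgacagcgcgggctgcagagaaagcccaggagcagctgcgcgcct
Irf8: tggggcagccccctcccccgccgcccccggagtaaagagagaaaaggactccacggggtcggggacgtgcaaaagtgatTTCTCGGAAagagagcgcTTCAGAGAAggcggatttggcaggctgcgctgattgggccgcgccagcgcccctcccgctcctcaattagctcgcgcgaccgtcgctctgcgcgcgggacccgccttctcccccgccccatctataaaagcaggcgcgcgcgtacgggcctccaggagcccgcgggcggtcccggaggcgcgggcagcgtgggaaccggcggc

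The Irf8 window held 2 STAT elements, TTCTCGGAA starting 171 bases and TTCAGAGAA starting 153 bases before the gene's start, and they do not overlap. Of 32851 windows of this length, 8.30% held a STAT element, and Irf8 was the only factor with one among the 9 whose windows were available. The Tbx21 window held none of the 6 motifs searched. The interferon response element, present in 3.44% of windows, was found for Eomes. The AP-1 element TGANTCA, present in 7.81%, was found for Prdm1, and the Runt core TGTGGT, present in 16.8%, for Runx3 and Batf. The T-box core TCACACC, in 3.98% of windows, and the E-box CACGTG, in 7.15%, were in none of the 9. A match is a run of letters and not a measured binding site.

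Tbx21 log2 values on the saline arrays were 5.46, 6.48, 6.47, 5.65 and 5.90. With SD-101 the lowest was 6.80, the median 7.28 and the highest 7.70, and with SD-101 plus anti-PD-1 the values were 7.10, 7.15, 7.80, 7.23 and 7.45. The triple group had 8.21, 6.24, 8.42 and 7.79. All arrays of SD-101 and of SD-101 plus anti-PD-1 lay above all saline arrays, and 3 of 4 triple arrays did, the exception being replicate 2. Group means were 5.99 ± 0.47 (SD, n = 5) with saline and 7.26 ± 0.36 (SD, n = 6) with SD-101. They were 7.35 ± 0.29 (SD, n = 5) with SD-101 plus anti-PD-1 and 7.67 ± 0.99 (SD, n = 4) in the triple group.

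Tbx21 rose 2.56-fold with SD-101 plus anti-PD-1, a log2 difference of 1.36 (SE 0.33, limma adjusted p = 0.0173). It rose 3.19-fold in the triple group, a log2 difference of 1.67 (SE 0.35, limma adjusted p = 0.00607). With SD-101 alone its group mean was 2.40-fold higher, a log2 difference of 1.27 (SE 0.31, 95% interval 0.61 to 1.92). All 6 arrays lay above all saline arrays, but the difference did not pass the test over all genes (limma adjusted p = 0.117). Groups that did not overlap in this direction were found for 0.807% of all genes with SD-101 and 3.36% with SD-101 plus anti-PD-1.

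Natural killer cells also carry Tbx21, and their markers were higher with SD-101. The NK cell score, over 6 of 9 listed genes, was 3.41 to 3.84 with saline, 3.97 to 4.99 with SD-101, 3.73 to 3.91 with SD-101 plus anti-PD-1 and 3.22 to 3.92 in the triple group. All 6 genes were higher with SD-101 than saline and 1 rose, Ncr1, the NK cell receptor NKp46, whose group means were 5.16, 7.02, 5.25 and 4.13 in the same order. Klra9, the brightest of the 6, went another way, with means of 6.27, 7.84, 7.17 and 7.49, above saline in every treated group. Klrb1c, the NK cell antigen NK1.1 in some strains, had a highest value of 3.55 over all arrays. Klra1, Klra7 and Klra8 were dim too, with means of 2.37, 2.79 and 2.49 over all arrays. With the NK cell score as a covariate, Tbx21 differed from saline by 0.29 with SD-101 (limma adjusted p = 0.851), 1.13 with SD-101 plus anti-PD-1 (limma adjusted p = 0.0106) and 1.71 in the triple group (limma adjusted p = 9.17e-04). Every SD-101 array had a higher NK cell score than all other arrays, so this fit cannot separate the score from SD-101. The covariate was added after seeing the data, and the share of all genes called with it is not given.

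No difference in Tbx21 between treated groups passed. SD-101 plus anti-PD-1 exceeded SD-101 by 0.09 (SE 0.31, 95% interval -0.56 to 0.74, limma adjusted p = 0.928). The triple group exceeded SD-101 plus anti-PD-1 by 0.32 (95% interval -0.40 to 1.04, limma adjusted p = 0.703) and SD-101 by 0.41 (95% interval -0.29 to 1.10, limma adjusted p = 0.571). Without triple replicate 2 these differences were 0.80 (limma adjusted p = 0.190) and 0.89 (limma adjusted p = 0.138), so their size rests on that array.

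Without triple replicate 2, Tbx21 was also called higher with SD-101 alone, at the same difference of 1.27 and an adjusted p of 0.00938 in limma, where 0.450% of all genes passed. The triple difference was then 2.15 (limma adjusted p = 1.68e-04), with 5.83% of all genes called. The rise with SD-101 plus anti-PD-1 was lost at the threshold without saline replicate 4 (1.27, limma adjusted p = 0.0530) or without replicate 3 of its own group (1.24, limma adjusted p = 0.0547).

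The T cell identity score bears on Tbx21 as a covariate of the fit. With it, Tbx21 was called higher than saline in all 3 treated groups. The log2 differences were 1.02 with SD-101 (limma adjusted p = 0.0280), 1.15 with SD-101 plus anti-PD-1 (limma adjusted p = 0.00206) and 1.57 in the triple group (limma adjusted p = 1.62e-04). In that fit 0.497%, 8.76% and 15.2% of all genes passed in the same order. With scores of endothelial, epithelial, macrophage and B cell genes as 4 covariates, no factor passed in any comparison. Tbx21 differences were then 0.49, 0.38 and 1.54 and that of Irf8 in the triple group 0.89, and 0.0292%, 0.00585% and 0.00585% of all genes passed against saline. With the heat shock and dissociation score as a covariate, Tbx21 differed by 1.23 with SD-101 plus anti-PD-1 (limma adjusted p = 0.378) and by 1.56 in the triple group (limma adjusted p = 0.0526), and neither passed. With B cell and dendritic cell scores as covariates it differed by 1.02 with SD-101 plus anti-PD-1 (limma adjusted p = 0.0934). With only the triple and saline arrays in the fit its triple difference did not pass (limma adjusted p = 0.0827). Whether cells other than T cells contribute to these transcripts was not tested, and neither these fits nor the NK cell score can settle it.

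Subtracting the T cell identity score of the same array gives Tbx21 relative to T cell transcripts. The difference was between -4.39 and -3.27 on the saline arrays, -3.16 and -2.18 with SD-101, -2.66 and -2.21 with SD-101 plus anti-PD-1, and -2.38 and -1.89 in the triple group. No treated array overlapped the saline arrays on this scale, as for 0.187% of all genes with SD-101, 0.503% with SD-101 plus anti-PD-1 and 0.585% in the triple group, and triple replicate 2, the array with the lowest T cell score, stood at -2.19 beside the other triple arrays.

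The genes whose values followed Tbx21 most closely over the 20 arrays were Klrk1, which encodes the activating receptor NKG2D (Pearson r = 0.976), Gimap7, a GTPase of lymphocytes (r = 0.968), and Ccl5, a chemokine that effector CD8 T cells store (r = 0.937). These are descriptions, and the arrays share the variation in T cell transcripts.

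Eomes encodes the other T-box factor of CD8 T cells and is carried by effector and memory cells alike. Its saline values were 7.33, 8.34, 8.38, 7.74 and 10.18, and the last of these was the highest of all 20 arrays. With SD-101 they ran from 7.81 through a median of 8.66 to 8.87, with SD-101 plus anti-PD-1 they were 8.59, 7.90, 8.57, 8.53 and 9.07, and in the triple group 8.32, 6.61, 8.77 and 8.12. Every treated group overlapped saline. The differences from saline were 0.16 (SE 0.42, limma adjusted p = 0.966) with SD-101, 0.14 (SE 0.44, limma adjusted p = 0.921) with SD-101 plus anti-PD-1 and -0.44 (SE 0.47, limma adjusted p = 0.664) in the triple group. The last became 0.0094 without triple replicate 2 (limma adjusted p = 0.996). A second Eomes probe set gave 0.13, 0.21 and -0.39, none of which passed.

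The T-box pair was therefore also read within each array, a comparison chosen after its values were seen and given without a test. Tbx21 minus Eomes was -1.87, -1.86, -1.91, -2.09 and -4.28 on the saline arrays. It was between -1.81 and -0.88 with SD-101, and -1.49, -0.75, -0.77, -1.30 and -1.62 with SD-101 plus anti-PD-1. In the triple group it was -0.11, -0.37, -0.35 and -0.33. All saline arrays lay below all others and all triple arrays above all others, triple replicate 2 included. The saline arrays were set apart narrowly, with the highest of them at -1.86 beside an SD-101 array at -1.81. These are differences of 2 probe sets, so the sign of a single value says nothing of which transcript was more abundant. Of the 45 pairs that the 10 factors form, saline stood apart from all other arrays in 3, Tbx21 with Eomes, Tbx21 with Id2, and Irf8 with Zeb2. The triple group stood apart in 2, Tbx21 with Eomes and Tbx21 with Runx3. The groups of SD-101 and of SD-101 plus anti-PD-1 did so in 0. How often pairs of all genes stand apart in this way is not given, so these counts are descriptions only.

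**Figure D2:**
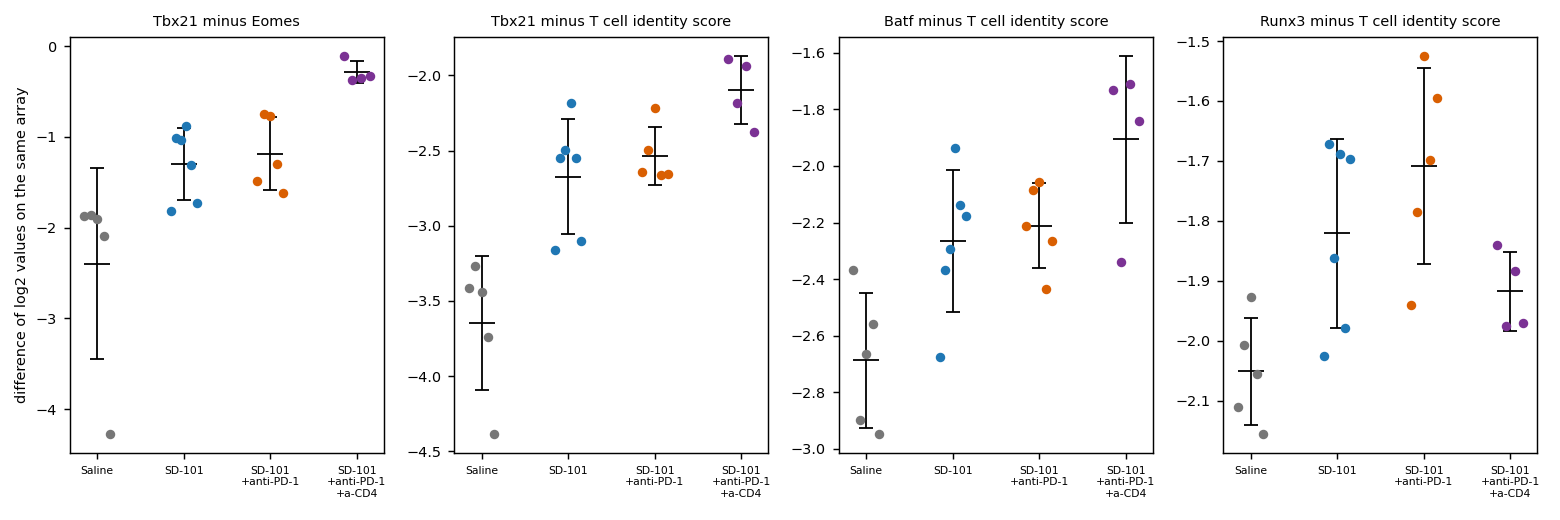
Differences of log2 values on the same array (vertical axes) by treatment, with 1 point per array and bars for the group mean and SD: Tbx21 minus Eomes, and Tbx21, Batf and Runx3 minus the T cell identity score. The 4 triple points of Tbx21 minus Eomes lie between -0.37 and -0.11, above every other array.

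The nearest patterns to Eomes were those of Sh2b1, an adaptor protein (r = 0.954), Fam234b (r = 0.925) and Il27ra, a chain of the IL-27 receptor (r = 0.925), over the same 20 arrays.

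Runx3, the Runt factor that keeps CD8 T cells cytotoxic, had saline values of 6.77, 7.74, 7.99, 7.34 and 8.13. With SD-101 it ran from 7.67 through 8.10 to 8.54, with SD-101 plus anti-PD-1 the values were 7.81, 7.86, 8.50, 8.19 and 8.52, and in the triple group 8.26, 6.45, 8.48 and 8.20. All treated groups overlapped saline, and the differences of 0.52, 0.58 and 0.25 did not pass (limma adjusted p = 0.712, 0.361 and 0.740). The triple difference was 0.72 without triple replicate 2 (limma adjusted p = 0.120). Its values moved with the T cell identity score of the same array. Runx3 minus that score was between -2.16 and -1.93 with saline and between -2.03 and -1.67 with SD-101. With SD-101 plus anti-PD-1 it was between -1.94 and -1.52, and in the triple group between -1.97 and -1.84. The nearest patterns to Runx3 were those of Gpr171, a receptor of T cells, Ltb, a lymphotoxin chain, and Tbc1d10c, a signalling regulator, each with r = 0.969. With the T cell identity score as a covariate, the difference with SD-101 plus anti-PD-1 was 0.34 and passed (limma adjusted p = 0.0310).

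**Figure D3:**
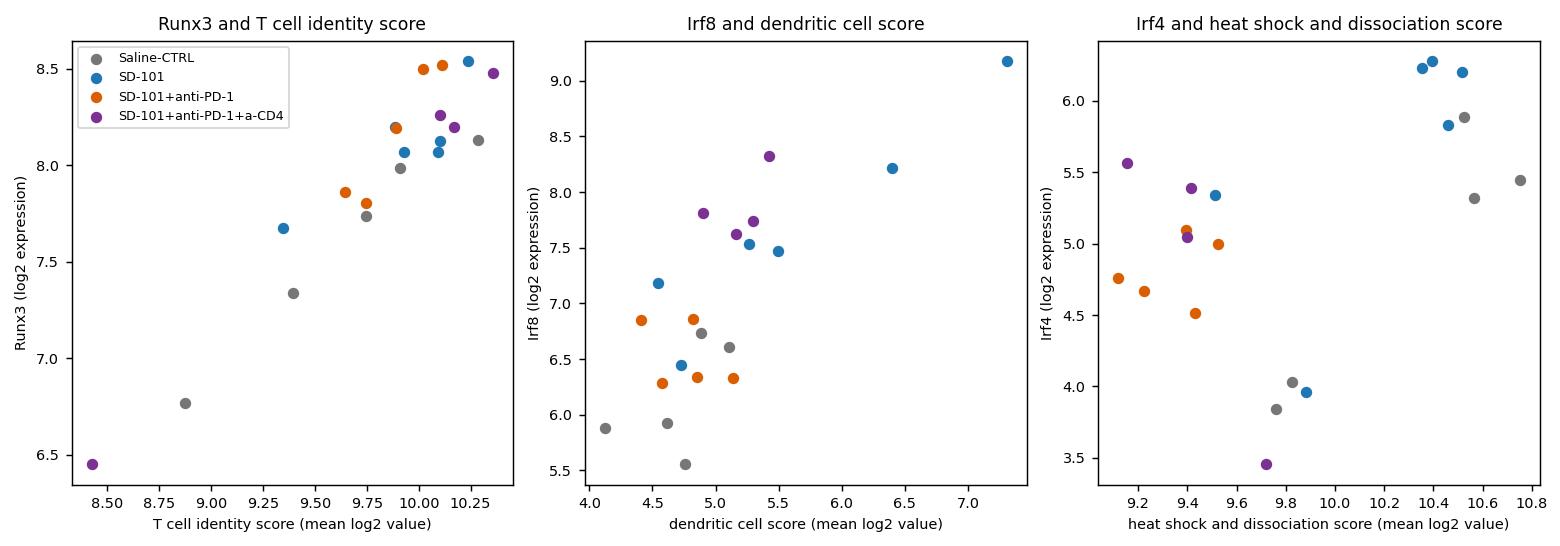
Log2 values of Runx3, Irf8 and Irf4 (vertical axes) against the T cell identity, dendritic cell and heat shock scores of the same array (horizontal axes, mean log2 values), 1 point per array coloured by group. SD-101 replicate 4 has the highest Irf8, 9.18, and the highest dendritic score, 7.31, while the triple arrays have Irf8 values from 7.62 to 8.33 at dendritic scores from 4.90 to 5.42.

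Irf8 had the smallest F-test p of the 10 factors. On the saline arrays it was 6.74, 5.93, 5.55, 6.61 and 5.88. With SD-101 the values were 6.45, 7.54, 8.21, 9.18, 7.47 and 7.18, with SD-101 plus anti-PD-1 6.34, 6.33, 6.86, 6.29 and 6.85, and in the triple group 8.33, 7.62, 7.81 and 7.74. All triple arrays lay above all saline arrays and above all arrays of SD-101 plus anti-PD-1, which overlapped saline. The SD-101 arrays were above all saline arrays on 5 of 6.

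Irf8 rose 3.32-fold in the triple group against saline, a log2 difference of 1.73 (SE 0.39, 95% interval 0.92 to 2.54, limma adjusted p = 0.0104). With SD-101 alone it was 2.89-fold higher, 1.53 (SE 0.35, limma adjusted p = 0.0869), which did not pass. With SD-101 plus anti-PD-1 the difference from saline was 0.39 (SE 0.36, 95% interval -0.37 to 1.16, limma adjusted p = 0.644). Groups that did not overlap in the higher direction were found for 4.84% of all genes between the triple group and saline.

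Among the treated groups, 0 of 10 factors passed between SD-101 plus anti-PD-1 and SD-101, where 4.77% of all genes did. There 1 of 10, Irf8, had an unadjusted p below 0.05, a threshold for which no share of all genes is given here. Irf8 was 1.14 log2 units lower in the combination (difference -1.14, SE 0.35, 95% interval -1.87 to -0.41, limma adjusted p = 0.0700). Between the triple group and SD-101 plus anti-PD-1, 0 of 10 passed against 2.13% of all genes, again with Irf8 alone below an unadjusted p of 0.05. The groups did not overlap for Irf8 there, as for 3.92% of all genes, and the difference was 1.34 (SE 0.39, 95% interval 0.53 to 2.15, limma adjusted p = 0.0762). Between the triple group and SD-101, 0 of 10 passed at the adjusted threshold, against 0.983% of all genes, and 0 of 10 at the unadjusted one. Irf8 differed there by 0.20 (SE 0.37, limma adjusted p = 0.827).

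A second Irf8 probe set gave the same order of groups. Its differences from saline were 1.42, 0.30 and 1.68, and the triple difference passed when all 28898 probe sets with 1 symbol were tested (limma adjusted p = 0.0173), where 5.87% were called. The triple rise passed in 20 of 20 fits that each left out 1 array, with differences from 1.58 to 1.88 and adjusted p-values in limma of at most 0.0368. Without triple replicate 2 it was 1.82 (limma adjusted p = 0.0183). The SD-101 results leaned on single arrays. Without SD-101 replicate 1, Irf8 was called higher with SD-101 than saline (1.77, limma adjusted p = 0.0183) and lower with SD-101 plus anti-PD-1 than SD-101 (-1.38, limma adjusted p = 0.0206). Without SD-101 replicate 4 the difference from saline was 1.23 and was not called. The difference between the triple group and SD-101 plus anti-PD-1 was called without SD-101 replicate 1 (1.34, limma adjusted p = 0.0456) or without SD-101 replicate 4 (1.34, limma adjusted p = 0.0291), since the arrays of all groups set the spread.

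Irf8 is also carried by dendritic cells, B cells and macrophages, so their markers are given beside it. The dendritic cell score, the mean of 7 of the 11 listed genes that were measured, was 4.12 to 5.11 with saline, 4.72, 5.27, 6.40, 7.31, 5.49 and 4.54 with SD-101, 4.41 to 5.13 with SD-101 plus anti-PD-1 and 4.90 to 5.42 in the triple group. The SD-101 array with the highest Irf8, replicate 4, had the highest dendritic score. On it Xcr1, a chemokine receptor of cross-presenting dendritic cells, reached 7.91, Flt3, a growth factor receptor of dendritic cells, 6.76, and Itgax, the integrin chain CD11c, 8.63. None of the 7 dendritic genes passed against saline in any treated group, and their median differences were 0.996, -0.11 and 0.60, with 7, 3 and 6 of 7 higher. In the triple group the means against saline were 5.28 and 4.28 for Itgax, 3.71 and 3.11 for Flt3, 2.95 and 2.83 for Xcr1, 9.22 and 8.26 for Fscn1, an actin-bundling protein of mature dendritic cells, and 8.15 and 7.21 for H2-DMb2, a peptide loading protein. Those of Cd209a were 3.51 and 3.29. Zbtb46 went the other way, with 3.55 in the triple group and 3.91 with saline. The B cell score, over 8 of 9 listed genes, was 3.82 to 4.25 with saline, 4.14 to 5.58 with SD-101, 4.19 to 4.59 with SD-101 plus anti-PD-1 and 3.39 to 4.18 in the triple group. The macrophage and monocyte score, over 12 of 15 listed genes, reached 6.98 on SD-101 replicate 4 and was between 4.51 and 5.24 in the triple group. With the B cell and dendritic cell scores as covariates, Irf8 differed from saline by 0.84 with SD-101 (limma adjusted p = 0.855) and by 1.33 in the triple group (limma adjusted p = 0.0105), where 6.07% of all genes passed.

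The nearest patterns to Irf8 were those of Ehbp1l1 (r = 0.879), Snx10, a sorting nexin (r = 0.858), and Ywhah, an adaptor of the 14-3-3 family (r = 0.847). Against saline, 1 of 6 other interferon regulatory factors measured rose in each treated group, where 0.333%, 5.63% and 7.12% of all genes passed. It was Irf7, the amplifier of type I interferon, with differences of 1.25 (limma adjusted p = 0.0345), 1.45 (limma adjusted p = 0.00192) and 1.06 (limma adjusted p = 0.0235). Between the triple group and SD-101 plus anti-PD-1 Irf7 differed by -0.38 (SE 0.27, limma adjusted p = 0.518).

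**Figure D4:**
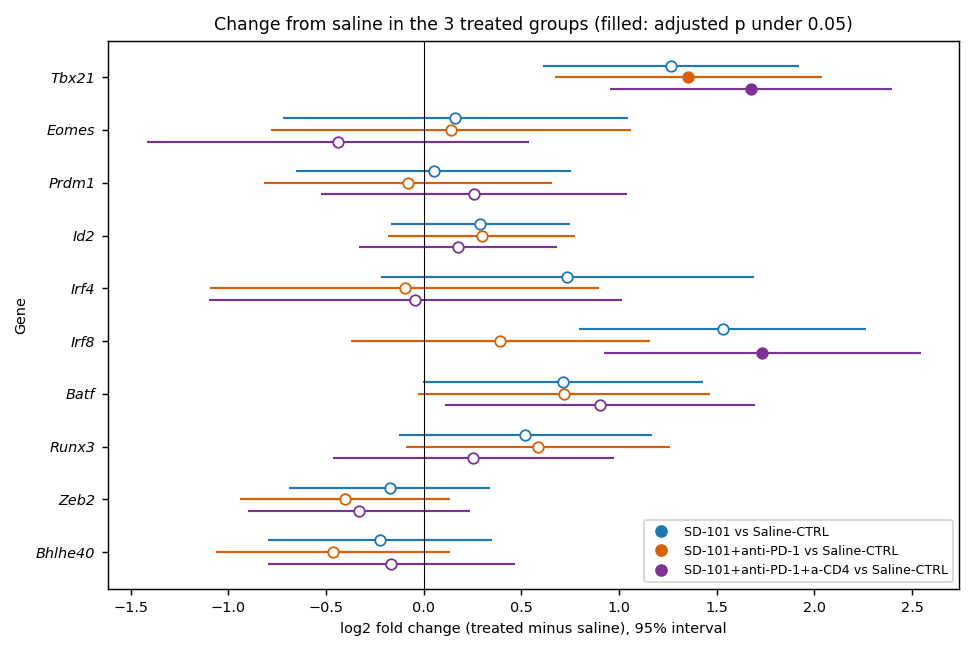
Log2 difference from saline (axis in log2 units) of each of the 10 factors in the 3 treated groups, with 95% intervals from the fit over all genes. Tbx21 lies at 1.27, 1.36 and 1.67 and Irf8 at 1.53, 0.39 and 1.73, and of the other 8 factors only Batf in the triple group, at 0.90, has an interval that leaves out 0.

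Irf4, which scales the response to antigen receptor strength, spread widely within groups. Saline values were 4.03, 3.84, 5.32, 5.45 and 5.89, SD-101 values 5.34, 3.96, 6.23, 6.28, 6.21 and 5.83, and those of SD-101 plus anti-PD-1 5.10, 4.51, 4.76, 4.67 and 4.99. The triple arrays had 5.05, 3.45, 5.57 and 5.39. Saline and SD-101 each held arrays between 3.84 and 4.03 and arrays of 5.32 or more. The differences from saline were 0.74, -0.10 and -0.04 and none passed (limma adjusted p = 0.730, 0.952 and 0.978). Leaving out triple replicate 2 turned the last to 0.43 (limma adjusted p = 0.720). The combination lay 0.83 below SD-101 (difference -0.83, limma adjusted p = 0.361).

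The heat shock and dissociation score, over 14 genes that respond to handling and activation, was 9.83, 9.76, 10.56, 10.75 and 10.52 on the saline arrays and 9.51, 9.88, 10.36, 10.40, 10.52 and 10.46 on the SD-101 arrays, in the order used for Irf4. In both groups the arrays with a score of 10.36 or more had higher Irf4 than the others. They were replicates 3 to 5 of saline and 3 to 6 of SD-101. Scores ran from 9.12 to 9.52 with SD-101 plus anti-PD-1 and from 9.15 to 9.72 in the triple group. The part of handling in Irf4 was not tested. The nearest patterns to Irf4 were those of activation genes: Tnf, the inflammatory cytokine (r = 0.919), Rgs1, a regulator of G protein signalling (r = 0.889), and Xcl1, a chemokine of activated CD8 T cells (r = 0.881).

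Batf, the AP-1 factor that pairs with Jun proteins and binds DNA together with Irf4, was higher than saline on most treated arrays without passing the test. Its saline values were 6.51, 6.85, 7.25, 6.83 and 7.34. With SD-101 it ran from 6.98 through 7.79 to 8.06, with SD-101 plus anti-PD-1 the values were 7.53, 7.56, 7.96, 7.46 and 7.85, and in the triple group 8.37, 6.08, 8.65 and 8.33. All arrays of SD-101 plus anti-PD-1 lay above all saline arrays, as for 3.36% of all genes. With SD-101 5 of 6 arrays did, and in the triple group 3 of 4 did. The differences from saline were 0.71 (SE 0.34, limma adjusted p = 0.608), 0.72 (SE 0.36, limma adjusted p = 0.293) and 0.90 (SE 0.38, limma adjusted p = 0.171).

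Batf depended on triple replicate 2, where it was 6.08. Without that array Batf was called higher with SD-101 plus anti-PD-1 (0.72, limma adjusted p = 0.0342) and in the triple group (1.49, limma adjusted p = 0.001004). In that fit 6.88% of all genes were called with SD-101 plus anti-PD-1. With the T cell identity score as a covariate on all 20 arrays, the triple difference was 0.77 and passed (limma adjusted p = 0.00316). Its nearest patterns were those of Nkg7, a protein of cytotoxic granules (r = 0.961), Syt11, a synaptotagmin (r = 0.950), and Pycard, the inflammasome adaptor (r = 0.949).

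Id2, the helix-loop-helix protein that blocks E proteins because it cannot bind DNA itself, was bright on every array. Its values were 10.38, 10.95, 10.86, 10.56 and 10.68 with saline, 10.64 to 11.27 with a median of 11.05 with SD-101, and 10.91, 10.62, 11.14, 11.12 and 11.12 with SD-101 plus anti-PD-1. The triple group had 11.26, 9.78, 11.28 and 11.13. The groups overlapped, and differences of 0.29, 0.30 and 0.18 did not pass (limma adjusted p = 0.791, 0.554 and 0.747). The triple difference for Id2 was 0.54 without triple replicate 2 (limma adjusted p = 0.0560). A second Id2 probe set gave 0.16, 0.19 and 0.18, and the dimmest Id2 probe set gave 0.42, -0.31 and -0.22, opposite in sign to the other two in the last 2 groups. Neither passed. The nearest patterns were those of Cd52, a lymphocyte surface protein (r = 0.916), Fgl2, a fibrinogen-like protein (r = 0.908), and Cd82, a tetraspanin (r = 0.907).

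Prdm1, which encodes the repressor Blimp-1 of terminal effectors and plasma cells, had saline values of 5.35, 5.01, 6.26, 5.63 and 5.54. With SD-101 it ran from 4.85 through 5.70 to 6.23, with SD-101 plus anti-PD-1 the values were 5.31, 5.31, 5.85, 5.14 and 5.77, and in the triple group 6.29, 4.25, 6.41 and 6.32. The differences of 0.05, -0.08 and 0.26 did not pass (limma adjusted p = 0.990, 0.946 and 0.762). In the triple group 3 of 4 arrays were above all saline arrays and replicate 2 was below all of them. Without it the difference was 0.78 (limma adjusted p = 0.108). Plasma cell genes were higher than saline in every treated group, 5 of 5 measured in each. Their median differences were 1.51 with SD-101, 0.94 with SD-101 plus anti-PD-1 and 0.24 in the triple group. The part of plasma cells in Prdm1 was not tested. The plasma cell score over 5 of 7 listed genes had means of 5.60, 7.44, 7.01 and 6.12 in saline, SD-101, the combination and the triple group, and Jchain and Ighm rose with SD-101 and with the combination. The nearest patterns were those of Gng2, a G protein subunit (r = 0.805), Tnfsf10, the death ligand TRAIL (r = 0.764), and Asb1 (r = 0.762).

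Zeb2 is a zinc-finger repressor that acts with T-bet in terminal effectors. Its saline values were 6.02, 5.28, 5.90, 6.41 and 5.19, with SD-101 it ran from 4.90 through 5.66 to 6.17, and with SD-101 plus anti-PD-1 the values were 5.50, 5.46, 5.52, 5.18 and 5.12. The triple group had 5.34, 5.93, 4.86 and 5.59. All groups overlapped, and the differences of -0.17, -0.40 and -0.33 did not pass (limma adjusted p = 0.910, 0.447 and 0.547). The last was -0.50 without triple replicate 2 (limma adjusted p = 0.382). With B cell and dendritic cell scores as covariates it was -0.76, and Zeb2 was then called lower in the triple group (limma adjusted p = 0.0438). Zeb2 is also carried by macrophages and endothelial cells, whose markers are given above. The nearest patterns were those of Cdk14, a kinase (r = 0.907), Ralb, a small GTPase (r = 0.901), and Itpripl2 (r = 0.886).

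Bhlhe40, a helix-loop-helix repressor induced by activation, had saline values of 9.26, 9.38, 10.01, 10.06 and 9.59. With SD-101 they were 8.09, 8.95, 9.95, 9.92, 9.92 and 9.78, with SD-101 plus anti-PD-1 9.24, 9.24, 8.87, 9.31 and 9.32, and in the triple group 9.72, 9.27, 9.49 and 9.50. The groups overlapped, and the differences of -0.22, -0.46 and -0.17 did not pass (limma adjusted p = 0.897, 0.426 and 0.822). Leaving out triple replicate 2 gave -0.090 for the last (limma adjusted p = 0.934). As for Irf4, the saline and SD-101 arrays with heat shock scores of 10.36 or more were the higher ones in their groups. The nearest patterns were those of Coq10b, a coenzyme Q protein (r = 0.777), Ufd1, a protein of ubiquitin-dependent degradation (r = 0.773), and Ptp4a1, a phosphatase (r = 0.768).

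Across the 10 factors the median log2 difference from saline was 0.40 with SD-101, 0.22 with SD-101 plus anti-PD-1 and 0.22 in the triple group, beside 0.012, 0.031 and 0.037 over all genes. The number of factors with a positive difference was 8, 6 and 6 of 10. Without triple replicate 2 the triple median was 0.63 and 8 of 10 were positive, so the place of the triple group among these medians rests on 1 array.

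Genes that T-box factors are known to act on were listed together with other effector genes, with earlier results of these data known. Counts from such a list beside the share of all genes are descriptions only. Of 18 listed and measured, 1 rose with SD-101, 5 with SD-101 plus anti-PD-1 and 8 in the triple group, none fell, where 0.333%, 5.63% and 7.12% of all genes passed in either direction, and the median differences were 0.67, 0.54 and 1.05. Gzmb, a granule protease that kills target cells, rose by 1.88 (limma adjusted p = 0.0441), 2.09 (limma adjusted p = 0.00390) and 2.40 (limma adjusted p = 0.00259). Gzmk, another granule protease, rose by 1.88 with SD-101 plus anti-PD-1 (limma adjusted p = 8.54e-04) and by 1.97 in the triple group (limma adjusted p = 0.00144). Cxcr3, the chemokine receptor that T-bet induces, rose by 1.45 (limma adjusted p = 0.00549) and 1.64 (limma adjusted p = 0.00372) in the same groups. Between the triple group and SD-101 plus anti-PD-1, Cx3cr1, a chemokine receptor of terminal effectors, was the 1 of the 18 to differ, and it rose by 1.08 (limma adjusted p = 0.0307).

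Some factors of naive and memory T cells fell. Of 11 measured, 0 changed with SD-101, 2 fell with SD-101 plus anti-PD-1 and 4 fell in the triple group. The shares of all genes called in either direction were 0.333%, 5.63% and 7.12%. The median differences of the 11 were -0.055, -0.27 and -0.83. Klf2, which maintains quiescence and exit from tissue, fell by 0.97 (limma adjusted p = 0.0197) and 1.51 (limma adjusted p = 0.00176). Id3, an inhibitor of E proteins in memory precursors, fell by 1.06 with SD-101 plus anti-PD-1 (limma adjusted p = 0.0296). In the triple group Foxp1, a factor of T cell quiescence, fell by 0.90 (limma adjusted p = 0.00115), and Bach2, a repressor that restrains effector genes, fell by 1.35 (limma adjusted p = 0.00417). Bach2 was also lower in the triple group than with SD-101 plus anti-PD-1, by a difference of -1.08 (limma adjusted p = 0.0403). Against SD-101, 3 of the 11 fell in the triple group, Klf2, Bach2 and Foxp1, with differences of -1.42, -1.11 and -0.62. Triple replicate 2 had the lowest mean of these 11 genes in its group, 6.66, as it did for T cell identity. The other triple arrays had 7.32 to 7.58, and differences of these genes without replicate 2 are not given.

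Partner proteins of the factors included AP-1 subunits that fell. Of 18 measured, 4 fell with SD-101 plus anti-PD-1, 2 fell and 1 rose in the triple group, and 0 changed with SD-101. Over all genes 5.63%, 7.12% and 0.333% passed in the same order. Jun, the AP-1 subunit with which Batf pairs, fell by 1.05 (limma adjusted p = 0.00432) and 1.12 (limma adjusted p = 0.00445), and Junb, a related subunit, fell by 1.25 (limma adjusted p = 0.00641) and 1.34 (limma adjusted p = 0.00598). The heat shock and dissociation score also holds Jun and Junb and was lower in these groups. Ezh2, a histone methyltransferase of the Polycomb group, rose by 0.97 in the triple group (limma adjusted p = 0.00176).

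Of 17 measured genes of the cytokine receptors and signals that induce these factors, 0 changed with SD-101, 1 rose with SD-101 plus anti-PD-1, and 1 rose and 1 fell in the triple group. Over all genes 0.333%, 5.63% and 7.12% passed. The gene that rose was Il12rb1, a chain of the receptor for IL-12, which induces Tbx21, by 1.45 (limma adjusted p = 0.00762) and 1.85 (limma adjusted p = 0.00233). With SD-101 alone its difference was 1.23 (limma adjusted p = 0.109). Ifngr2, a chain of the interferon-gamma receptor, fell by 0.82 in the triple group (limma adjusted p = 0.0173).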

How the data were processed

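The authors deposited 1 table of values for 45141 Affymetrix probe sets on 20 arrays. The submitters' processing notes name affy, RMA, limma and mm8, and the values, between 1.78 and 13.44, were read as log2 values as the authors deposited them. Array medians ran from 3.52 to 3.75, no arrays were identical, and the number of arrays limits the precision. From the platform annotation 28898 probe sets had 1 gene symbol, 551 had several and 15692 had none. Genes, 17097 in all, were represented by the probe set with the highest mean. A group-means model with limma 3.58.1 in R 4.3.3 (16 residual degrees of freedom) was fitted over all genes, with 6 contrasts, an F test and Benjamini-Hochberg adjustment, and a gene was called at an adjusted p below 0.05. The fit was tested on simulated data.

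The 10 factors and the gene lists were chosen with earlier results of these data known. Named were all 10 factors, up to 3 genes of smallest p per list and comparison, markers of other cells beside a factor, and the 3 genes (mean log2 of at least 6) with the highest Pearson r to each factor. Scores are mean log2 values over a list. Promoter windows are from RefSeq (GRCm38.p6), and Bhlhe40 had no window used here. Alternatives covered probe set choice, normalization, filters, array weights, covariates, a replicate block and leaving out each array.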

Additional observations from a re-analysis of the deposited data

Results flagged for a closer look

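Single arrays that lay far from the rest of their group were found for 6 of 40 combinations of factor and group, where chance gives about 1 in 20. In the triple group replicate 2 was the low array for 4 factors. There Prdm1 was 4.25 beside 6.29 to 6.41 on the other arrays, Id2 was 9.78 beside 11.13 to 11.28, Batf was 6.08 beside 8.33 to 8.65, and Runx3 was 6.45 beside 8.20 to 8.48. This array had the lowest value of all 20 for 6 of the 10 factors and the lowest T cell identity score, 8.42, while its Irf8 value was 7.62. Eomes was 7.81 on SD-101 replicate 2 beside 8.47 to 8.87, and Bhlhe40 was 8.87 on replicate 3 of SD-101 plus anti-PD-1 beside 9.24 to 9.32.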

How the results depend on the processing

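The numbers of factors called in the 7 tests (SD-101, SD-101 plus anti-PD-1 and the triple group against saline, the combination against SD-101, the triple group against SD-101 and against the combination, and any difference) were 0, 1, 2, 0, 0, 0 and 2. With array weights 2 factors were called for SD-101 and 3 for the triple group against saline, 2 for the combination against SD-101, 1 for the triple group against the combination and 3 for any difference. With only the 2 groups compared the counts were 2 for the combination and 1 for the triple group against saline, and 1 for the triple group against the combination. With the T cell identity score as a covariate they were 1 for SD-101, 2 for the combination, 3 for the triple group and 3 for any difference. With 4 other cell type scores they were 0 for the combination, 0 for the triple group and 0 for any difference, and with the heat shock score 0, 1 and 1. Without the 2 arrays of lowest T cell score 1 was called for SD-101, 3 for the triple group and 3 for any difference. Covariates added after seeing the data gave 1 for the triple group against the combination with the NK score, and 0 for the combination and 4 for the triple group against saline with B cell and dendritic scores, of which 3 rose and Zeb2 fell. Leaving out 1 array gave 0 to 1, 0 to 2, 2 to 3, 0 to 1, 0 to 0, 0 to 1 and 2 to 3. With a replicate block the counts were again 0, 1, 2, 0, 0, 0 and 2. Of pairs of arrays from different groups, 27 with the same replicate number had a median r of 0.013, and 9 were above 0.1. The other 122 pairs had a median r of -0.012, and 40 were above 0.1. Here r was taken over all genes after group means were removed. Whether arrays were handled in batches was not tested, and equal numbers alone cannot show it. The 3 calls were kept in 58 of 60 fits that left out 1 array and lost in 7 of 51 fits under other settings. No called value changed sign. Among the 57 results that were not called, 7 were called on leaving out 1 array and 16 under other settings, counted over fits. Centring arrays on the median moved the median difference of all genes for the combination against saline from 0.031 to -0.11, and the factors were called as before. The number of all genes called against saline moved from 57, 962 and 1218 to 10, 728 and 476 with only the 2 groups compared, to 85, 1498 and 2602 with the T cell score, to 119, 1953 and 1779 with array weights and to 5, 1 and 1 with 4 other cell type scores. With the heat shock score 39 genes were called for the combination against saline. Array weights gave 2760 genes for the combination against SD-101, 1246 for the triple group against the combination and 3784 for any difference. For fits without a count over all genes here, such as those with the NK score, the counts of factors cannot be read alone. The causes of these changes were not tested.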
